A study of Mus musculus with 25 samples.

Results

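The genes described here are 9 targets of Wnt signalling that mark hepatocytes around the central vein of the liver lobule, namely Glul, Axin2, Lgr5, Tbx3, Rnf43, Znrf3, Slc1a2, Rhbg and Oat. They were chosen by symbol, matched to the identifiers of the count files, and make up 9 of the 41388 genes counted in each of 25 mouse liver libraries. All 9 were kept by the filter on low counts, among 14065 genes that were tested.

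Endothelial cells of the central vein secrete Wnt ligands and R-spondins, which keep beta-catenin active in the hepatocytes nearest to them. Those hepatocytes capture ammonium that escaped urea synthesis upstream and fix it into glutamine, while periportal hepatocytes run the urea cycle and gluconeogenesis. Axin2, Rnf43, Znrf3 and Lgr5 are widely used readouts of the pathway because beta-catenin drives their transcription in many tissues, whereas Glul, Oat, Slc1a2 and Rhbg carry out the glutamine and ammonium metabolism of the pericentral cells.

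The study asked how hepatocyte NAMPT, which supplies nicotinamide mononucleotide for NAD synthesis, acts with and without SIRT1, an NAD-dependent deacetylase, in diet-induced metabolic disease. Livers came from male C57B/6J mice aged 20 weeks. All mice carried floxed Sirt1 alleles and had received an AAV8 virus, and the WT mice were floxed littermates without the Cre. In the mice labelled LKO, an Albumin-Cre transgene was to delete Sirt1 in hepatocytes. The virus held either an empty vector (EV) or NAMPT under the thyroxine-binding globulin promoter, which is active in hepatocytes, so other liver cells were not targeted. The labels give 12 weeks of overexpression for every sample, EV included. The groups were chow-fed WT EV (n = 3) and, after 12 weeks of Western diet (WD), WD WT EV (n = 6), WD WT NAMPT (n = 6), WD LKO EV (n = 5) and WD LKO NAMPT (n = 5). The vector is taken from the sample titles, since the protocol text names SIRT1 and not NAMPT as the insert. The labels alone do not settle which of them is right, but the paper describes NAMPT overexpression from this promoter in these WT and LKO mice.

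Libraries held between 20166175 and 32937326 counts, and each member had at least 86 counts in every library. The 6 hepatocyte markers together gave between 44485 and 74959.6 CPM (counts scaled to a common library total), and none of them was at 0. Sirt1 did not differ past the test between LKO and WT libraries. It was at 8.57 ± 1.34 CPM (SD, n = 5) in WD LKO EV against 8.86 ± 0.573 CPM (SD, n = 6) in WD WT EV (log2 difference -0.07 ± 0.10, SE, limma, adjusted p = 0.990), and at 9.82 ± 1.36 CPM (SD, n = 5) in WD LKO NAMPT against 8.58 ± 0.617 CPM (SD, n = 6) in WD WT NAMPT (0.19 ± 0.11, adjusted p = 0.237). Counts summed over the whole gene cannot show the loss of single exons, so the LKO label rests on the sample titles here. In WD WT NAMPT, Nampt was at 59.5 ± 10.6 CPM (SD, n = 6), and in WD WT EV it was at 47.4 ± 6.46 CPM (SD, n = 6), a difference of 0.34 ± 0.16 on the log2 scale (SE) that did not pass the test (limma, adjusted p = 0.144). Nampt was at 79.9 ± 28.4 CPM (SD, n = 5) in WD LKO NAMPT and 56.1 ± 12.0 CPM (SD, n = 5) in WD LKO EV (0.41 ± 0.16, log2, SE, adjusted p = 0.403), and WD LKO NAMPT differed from WD WT NAMPT by 0.26 ± 0.16 (adjusted p = 0.306). Sirt1 differed by -0.11 ± 0.10 between WD WT NAMPT and WD WT EV (log2, SE, limma, adjusted p = 0.504). Between WD LKO NAMPT and WD LKO EV it differed by 0.15 ± 0.10 (adjusted p = 0.688). The libraries of WD WT NAMPT were unlike each other. Their 7 Kupffer cell and macrophage markers, all detected, summed to 758, 707, 777, 559.6, 474 and 288 CPM in replicates 1 to 6, against 306 to 441 CPM in WD WT EV. WD LKO NAMPT replicate 1 also stood high, at 625 CPM, while the other 4 libraries of that group lay between 307 and 412 CPM. The fit gives each library a quality weight, and 5 libraries were weighted under 0.6, namely WD WT NAMPT replicates 1, 2 and 6 and WD LKO NAMPT replicates 1 and 3. The last of these had 12.31% mitochondrial counts and 26.71% of its counts in the 10 largest genes, both the highest of all libraries. In whole liver RNA, fewer cells of a type and less RNA in each cell cannot be told apart.

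In the GRCm38 coordinates of the files, the members lie on 7 chromosomes. Glul (chr1:153899944-153909723) is glutamine synthetase and Oat (chr7:132557475-132576398) is ornithine aminotransferase. Slc1a2 (chr2:102658659-102790784) is a glutamate transporter, and Rhbg is an ammonium transporter of the Rhesus family. Lgr5 (chr10:115450311-115587780) is a receptor for R-spondins, and Rnf43 (chr11:87662722-87735539) and Znrf3 (chr11:5276324-5444847) are membrane ubiquitin ligases that remove Wnt receptors. Axin2 (chr11:108920349-108950783) is a scaffold of the complex that degrades beta-catenin, and Tbx3 (chr5:119670669-119684724) is a transcription factor. Every count covers the merged exons of a gene. The Rhbg identifier of the reference annotation was not a row of the files, so Rhbg was matched by position to the feature at chr3:88242874-88287210, which holds all 10 annotated Rhbg exons at identical coordinates. That feature also holds 2 exon blocks of Gm38392, so 1937 of its 2271 bases are Rhbg exons. In the reference annotation, exons of Gm38392 and Tsacc on the same strand cover 1524 of those 2271 bases, so most of the counted stretch is shared with other genes and every Rhbg value is uncertain. Smaller overlaps with exons of other genes cover 209 exonic bases of Axin2, 189 of Slc1a2, 116 of Glul and 115 of Tbx3 on the other strand or, for part of Glul, on the same one. Since no strand-specific step is described, reads in those stretches cannot be assigned with certainty.

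Sequence before the start site is shown for Slc1a2 and Oat, a pair whose levels rose and fell together across libraries and which both differed between the NAMPT groups. The RefSeq promoter table (GRCm38.p6) had entries for 5 of the 9 members. Each sequence stops before the first base that the annotation gives as an exon. Later bases are left out too, whether exonic or not, and 29 bases of the Slc1a2 window are annotated exon. Capitals mark a match to the letters bound by TCF and LEF factors, through which beta-catenin acts. Searched on both strands were the motif CTTTGAT and its 3 variants, of which one is CTTTGAA, another is CTTTGTT and the last is CTTTGTA.
Slc1a2 (chr2:102706188-102706355, plus strand, the first 168 of 250 upstream bases): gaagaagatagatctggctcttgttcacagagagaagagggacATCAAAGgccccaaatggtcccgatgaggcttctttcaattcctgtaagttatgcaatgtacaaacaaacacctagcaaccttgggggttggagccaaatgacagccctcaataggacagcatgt
Oat (chr7:132576399-132576648, minus strand, 250 upstream bases): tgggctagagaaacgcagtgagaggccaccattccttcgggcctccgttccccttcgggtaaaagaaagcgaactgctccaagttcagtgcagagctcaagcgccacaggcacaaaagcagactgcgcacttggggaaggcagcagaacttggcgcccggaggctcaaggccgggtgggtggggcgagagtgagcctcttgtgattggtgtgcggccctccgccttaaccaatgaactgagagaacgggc
The match before Slc1a2 is CTTTGAT on the minus strand, and its first base lies 207 bases upstream of a start site that is internal to the gene as counted. Of the 6 entries for members (Rnf43 has 2), this was the single one with a match, while 14.8% of all 32851 promoters in the table held at least 1 of the 4 motifs in the same 250 bases, and 3.21% held CTTTGAT. The windows differed in composition, with 44.8% GC and 1 CpG dinucleotide for Slc1a2 against 60.0% GC and 14 CpG dinucleotides for Oat, where the medians of all promoters were 52.4% and 6.0. The missing letters in the other windows say nothing about TCF binding elsewhere at these genes.

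Per length, the metabolic enzymes were far above the signalling genes. The median over 25 libraries was 374 RPKM (reads per kilobase of exon, scaled to library size) for Oat and 331 RPKM for Glul. It was 12.8 RPKM for Slc1a2, 9.11 for Tbx3, 5.28 for Rhbg and 4.58 for Rnf43. Znrf3 at 2.66 RPKM, Axin2 at 1.59 and Lgr5 at 0.737 were the lowest. Oat varied most, with a highest library 5.18 times the lowest, and Znrf3 least, at 1.51 times. When the 5 groups were put in order of their mean CPM for each gene, the libraries of neighbouring groups overlapped in 36 of 36 cases. WD LKO NAMPT had the highest mean of Glul, Slc1a2, Rhbg and Oat, and WD WT NAMPT had the lowest mean of Axin2, Lgr5, Tbx3 and Oat.

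**Figure D1:**
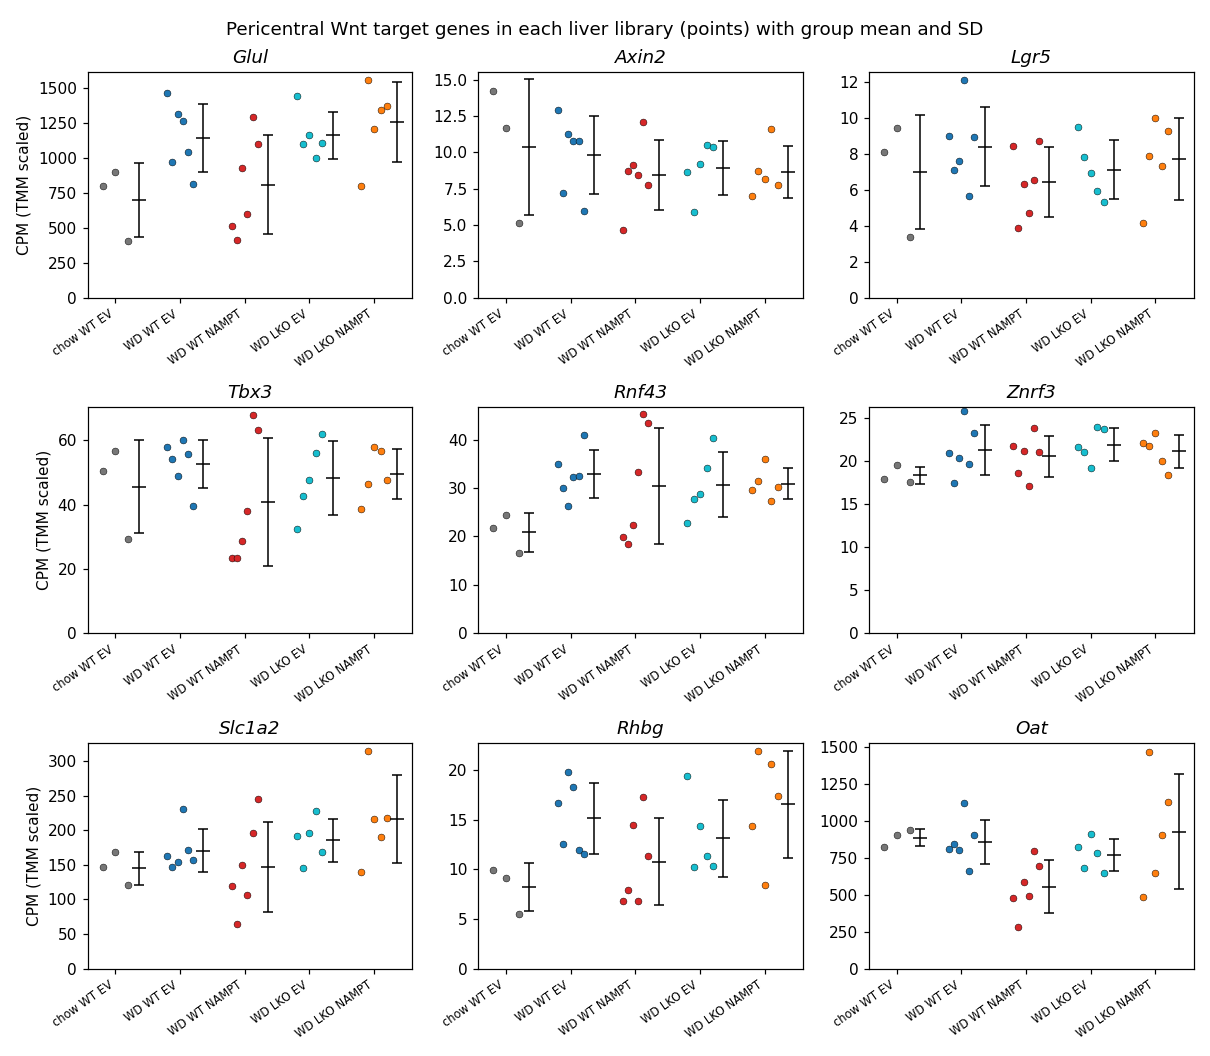
CPM after TMM scaling (y axis, from 0) of each member in every library, by group (x axis). Points are libraries in order of replicate number, and the bar beside them is the mean with its SD. In WD WT NAMPT the first 4 replicates lie low for Tbx3 and Oat, below every WD WT EV library.

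The first comparison asked what NAMPT did in WT livers on Western diet. Oat was the only member called, lower in WD WT NAMPT. All 9 fitted differences were negative. With upper-quartile scaling 8 of 9 were, without the 5 libraries of low quality weight 7, with scaling by library totals alone 6 and with 2 surrogate variables 5. Oat turns ornithine into a precursor of glutamate. It ran from 284 to 796 CPM with a median of 539 in WD WT NAMPT, and from 660.0 to 1120.1 CPM with a median of 828 in WD WT EV. Replicates 1 to 4 of WD WT NAMPT, at 479, 284, 585 and 494 CPM, lay below every WD WT EV library, and replicates 5 and 6, at 796 and 697 CPM, lay within their range. The fitted difference was -0.63 ± 0.19 on the log2 scale (SE, 0.648-fold, limma, adjusted p = 0.0321).

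Glul, which joins ammonium to glutamate, leaned the same way without a call. It ran from 411 to 1295 CPM with a median of 763 in WD WT NAMPT, and from 811 to 1463 CPM with a median of 1149.5 in WD WT EV. Replicates 1, 2 and 4 were below every EV library, and the groups overlapped in the others. The fitted difference was -0.53 ± 0.21 on the log2 scale (SE, adjusted p = 0.0984). Tbx3 ran from 23.3 to 67.9 CPM with a median of 33.3 in WD WT NAMPT, and from 39.5 to 60.0 CPM with a median of 54.9 in WD WT EV. Its replicates 1 to 4 were below, and its replicates 5 and 6 above, every EV library, and the difference was -0.53 ± 0.20 on the log2 scale (SE, adjusted p = 0.0804). Rhbg (-0.49 ± 0.24), Lgr5 (-0.47 ± 0.23) and Slc1a2 (-0.31 ± 0.19, log2 differences with SE) did not pass the test either. The negative feedback genes Rnf43, Axin2 and Znrf3 had the smallest differences, between -0.15 and -0.03. The 9 members had a median of -0.47, and all genes tested had a median of 0.00.

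Over all genes, 13.4% were called in this comparison in either direction and 5.77% as lower, so 1 of 9 members is near the background. The called genes split into 1079 higher and 811 lower, a split that became 2010 and 271 when libraries were scaled by their totals alone, which moved the median of all genes by 0.16 on the log2 scale. Oat was then at -0.45 and not called (adjusted p = 0.0869). The call of Oat was lost when any 1 of WD WT EV replicates 2 and 6 or WD WT NAMPT replicates 1, 2, 3 and 4 was left out (adjusted p between 0.0604 and 0.0918), with the edgeR quasi-likelihood test (adjusted p = 0.0956), without quality weights (0.0853), without a filter (0.0985) and with 2 surrogate variables (-0.42 on the log2 scale, adjusted p = 0.332), which also moved Glul to -0.31. Without the 5 libraries of low quality weight it was kept, at -0.57 on the log2 scale (adjusted p = 0.025). Without WD WT NAMPT replicate 5, 3 members were called lower, which were Oat, Glul and Tbx3, and without replicate 6 Oat and Tbx3 were. Calls over all genes rose as well in these fits, to 2803 and 2844, of which 1193 and 1218 were lower. The 4 WD WT NAMPT libraries with low Oat were those with 559.6 to 777 CPM of macrophage markers, and their 5 neutrophil markers summed to 22.3, 27.8, 16.1 and 17.6 CPM, against 8.09 and 3.66 CPM in replicates 5 and 6 and 2.81 to 7.96 CPM in WD WT EV. The 6 stellate cell markers summed to 483, 537, 449, 478, 404 and 309 CPM in WD WT NAMPT replicates 1 to 6, against 289 to 418 CPM in WD WT EV, and 3 of them (Des, Rgs5 and Col1a1) were called higher. The summed hepatocyte markers ran from 44485 to 62999.8 CPM in WD WT NAMPT and from 50598 to 66998 CPM in WD WT EV. The part of these other cell types in the result was not tested.

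**Figure D2:**
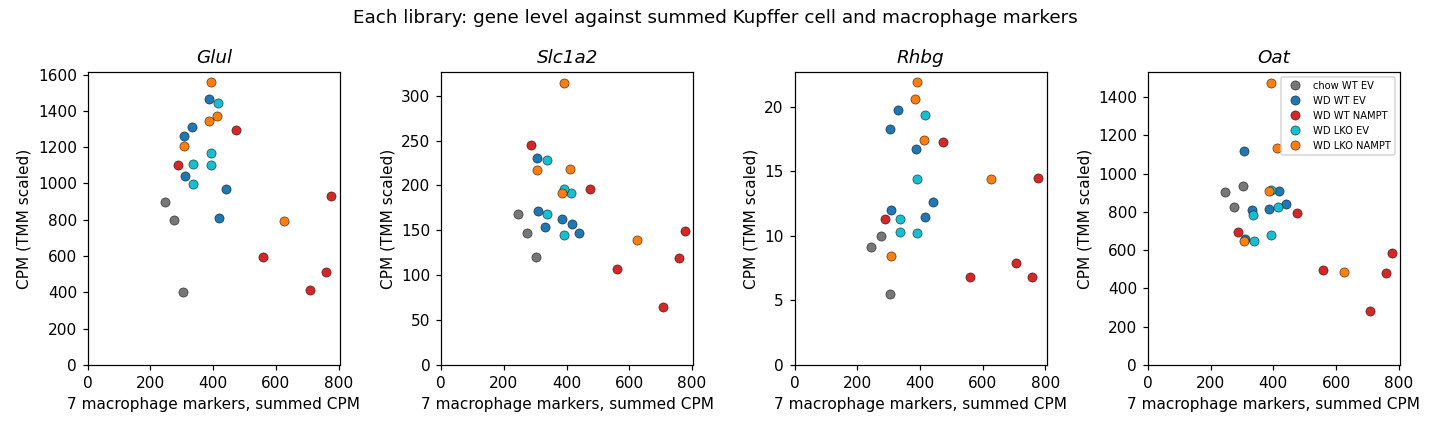
CPM of Glul, Slc1a2, Rhbg and Oat (y axes) against the summed CPM of 7 Kupffer cell and macrophage markers (x axes), 1 point per library, coloured by group. The 5 libraries with the most marker signal are WD WT NAMPT replicates 1 to 4 and WD LKO NAMPT replicate 1, and their Oat lies between 284 and 585 CPM.

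In the livers labelled LKO, NAMPT gave no called change in any member, where 1 gene of all those tested was called (0.00711%). Rhbg had the largest difference. Its libraries were at 14.4, 21.9, 8.46, 20.6 and 17.4 CPM in WD LKO NAMPT and at 19.4, 10.2, 14.4, 11.3 and 10.3 CPM in WD LKO EV, and the groups overlapped. The difference was 0.52 ± 0.23 on the log2 scale (SE, limma, adjusted p = 0.478). Oat was at 485, 1472, 646, 907 and 1133 CPM in WD LKO NAMPT, a wider spread than the 823, 679, 914, 784 and 647 CPM of WD LKO EV, and differed by 0.44 ± 0.20 on the log2 scale (SE, adjusted p = 0.502). The lowest Oat library was replicate 1, the one with high macrophage markers. Slc1a2 differed by 0.36 ± 0.21 and Glul by 0.21 ± 0.23 on the log2 scale (SE), and the other 5 members lay between -0.06 and 0.13.

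Whether the NAMPT effect differed between the genotypes is the test of the interaction, which subtracts the effect in WT from that in LKO. No member passed it, with 0.00711% of all genes called. The largest values were 1.07 ± 0.28 for Oat (log2, SE, adjusted p = 0.0745) and 1.01 ± 0.34 for Rhbg (adjusted p = 0.106). Glul at 0.74 ± 0.31 and Slc1a2 at 0.67 ± 0.28 had an adjusted p of 0.182 each. An unadjusted p under 0.05 was reached by 4 of 9 members and by 21.2% of all genes. Without the 5 libraries of low quality weight, the Oat interaction was 1.21 and passed (adjusted p = 0.0265), with 362 of all genes called. It also passed when WD WT NAMPT replicate 5 or 6 or WD LKO NAMPT replicate 1 was left out alone (adjusted p between 0.021 and 0.0357), where 366, 636 and 677 genes were called. In the other direction, its adjusted p was 0.4 with the edgeR quasi-likelihood test, 0.385 without quality weights, 0.238 without a filter and 0.228 with 2 surrogate variables, where the value was 0.81. The Slc1a2 interaction was 0.42 with DESeq2, 0.43 with the quasi-likelihood test and 0.22 with 2 surrogate variables.

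WD LKO NAMPT and WD WT NAMPT were then compared directly. This comparison shares the WD WT NAMPT libraries with the first one. The 4 genes of glutamine and ammonium metabolism, Glul, Slc1a2, Rhbg and Oat, were called higher in WD LKO NAMPT, by 1.72- to 1.88-fold, and the 5 signalling and transcription factor genes were not called. Oat had a mean of 929 ± 392 CPM (SD, n = 5) in WD LKO NAMPT, and the mean of WD WT NAMPT was 556 ± 179.8 CPM (SD, n = 6). Its log2 difference was 0.91 ± 0.21 (SE, limma, adjusted p = 0.0192). Glul was at 795, 1557, 1205, 1344 and 1373 CPM in WD LKO NAMPT, where replicate 1 lay near the WD WT NAMPT median of 763 CPM and the other 4 libraries lay far above it, within or past the upper end of that group. Its log2 difference was 0.79 ± 0.23 (SE, adjusted p = 0.0390).

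Slc1a2, which takes up glutamate, was at 139, 314, 217, 191 and 218 CPM in WD LKO NAMPT. In WD WT NAMPT it ran from 64.4 to 245 CPM with a median of 135, and the groups overlapped. Its log2 difference was 0.78 ± 0.21 (SE, adjusted p = 0.0295). Rhbg, for which the WD LKO NAMPT values are given above, ran from 6.80 to 17.3 CPM with a median of 9.62 in WD WT NAMPT, and 3 of 5 WD LKO NAMPT libraries lay above all of these. Its log2 difference was 0.82 ± 0.24 (SE, adjusted p = 0.0414). Lgr5 and Tbx3 each differed by 0.41 on the log2 scale (adjusted p = 0.257 and 0.208), and Rnf43, Znrf3 and Axin2 by between -0.01 and 0.08.

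Of all genes, 7.96% were called in either direction and 4.18% as higher in WD LKO NAMPT, against 4 of 9 members. The called genes were 588 higher and 532 lower, or 204 and 636 with scaling by library totals alone, which moved the median of all genes by -0.12 and left Oat as the single member called. The 4 calls depended on the quality weights and on single libraries. Without the 5 libraries of low quality weight all 4 were kept, with Glul at 0.85, Slc1a2 at 0.87, Rhbg at 0.93 and Oat at 1.05 on the log2 scale (adjusted p between 0.00823 and 0.0369). With the edgeR quasi-likelihood test, with DESeq2, and in limma without weights, 0 of 9 members were called, with fitted log2 differences of 0.54 to 0.74. With 2 surrogate variables 0 were called as well, and Slc1a2 fell to 0.36 (adjusted p = 0.332) while Glul, Rhbg and Oat were at 0.62, 0.85 and 0.66. The calls of Glul, Slc1a2 and Rhbg were lost without any 1 of WD WT NAMPT replicates 1, 2, 3 and 4 or WD LKO NAMPT replicates 2, 3 and 5 (adjusted p between 0.0512 and 0.267), and that of Oat without WD WT NAMPT replicate 3 or WD LKO NAMPT replicates 2 or 5 (between 0.0606 and 0.203). Within WD WT NAMPT, replicates 1, 2 and 4 had low Glul and Rhbg and high macrophage, neutrophil and stellate cell markers, while replicate 3, with the highest macrophage markers, had 929 CPM of Glul and 14.5 CPM of Rhbg, inside the range of WD WT EV. Replicate 6, with the lowest macrophage markers, had 11.3 CPM of Rhbg, below every WD WT EV library. The part of these cell types was not tested.

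**Figure D3:**
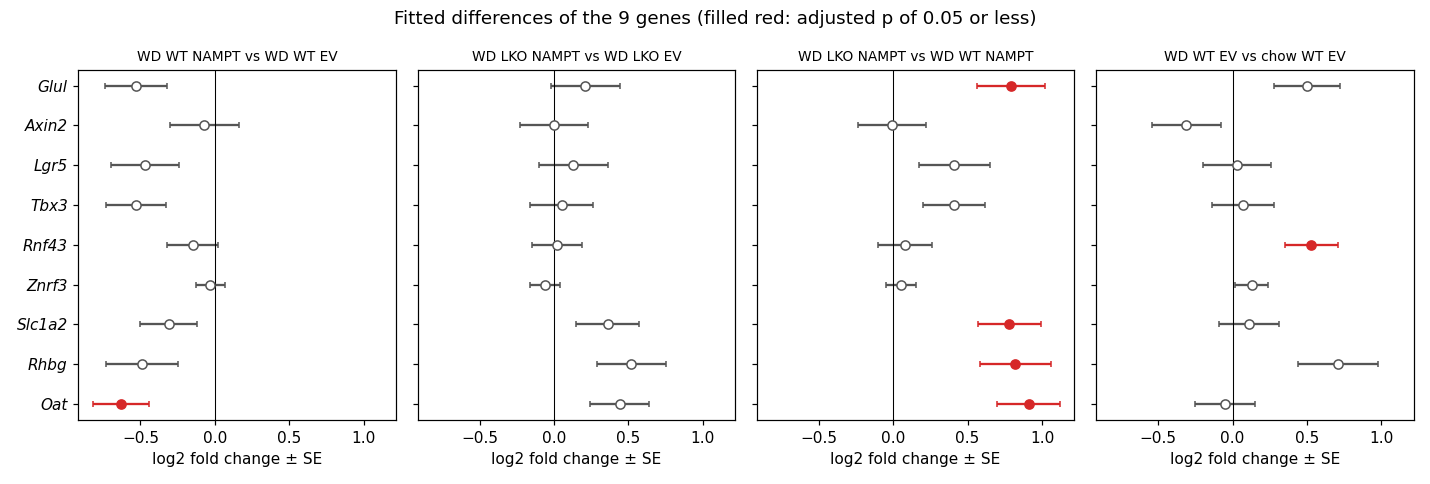
Fitted log2 fold changes (x axis, points) with their SE (bars) of the 9 members (y axis) in 4 comparisons. Filled red points have an adjusted p of 0.05 or less, which are Oat in the first panel, Glul, Slc1a2, Rhbg and Oat in the third and Rnf43 in the fourth.

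Between WD LKO EV and WD WT EV, no member was called, with 0.00711% of all genes called and no unadjusted p under 0.05 among the members. The log2 differences lay between -0.20 for Lgr5 and 0.11 for Slc1a2, with SE of 0.10 to 0.23. The mean of Glul in WD LKO EV was 1162 ± 168 CPM (SD, n = 5), where WD WT EV had 1142 ± 243 CPM (SD, n = 6).

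Western diet was compared with chow in WT EV mice. Rnf43, the ligase that withdraws Wnt receptors, was called higher on Western diet. It was at 21.7, 24.5 and 16.5 CPM in the chow libraries and ran from 26.3 to 41.0 CPM with a median of 32.4 in WD WT EV, so the groups did not overlap. The difference was 0.53 ± 0.18 on the log2 scale (SE, 1.44-fold, limma, adjusted p = 0.0391). Rhbg did not overlap either, at 9.97, 9.17 and 5.52 CPM on chow and 11.5 to 19.8 CPM with a median of 14.6 on Western diet, but its difference of 0.71 ± 0.27 (log2, SE) did not pass the test (adjusted p = 0.0608). Glul was at 799, 899 and 401 CPM on chow and differed by 0.50 ± 0.22 on the log2 scale (SE, adjusted p = 0.102). Oat, at 826, 903 and 937 CPM on chow, differed by -0.05 ± 0.20, and Axin2 by -0.31 ± 0.23 (log2, SE). The remaining 4 members lay between 0.03 and 0.13 and were not called.

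Over all genes, 22% were called in either direction, 10.1% were called higher, and 16.1% did not overlap between chow and Western diet, against 1, 1 and 2 of 9 members. The chow group had 3 libraries, and replicate 3 held the lowest value of the chow group for 8 of 9 members and the lowest of all 25 libraries for 4. The call of Rnf43 was lost without any 1 of the chow libraries or any 1 of WD WT EV replicates 1, 2, 6, 7 and 8 (adjusted p between 0.0511 and 0.116). In edgeR's quasi-likelihood test its adjusted p was 0.0897, and with DESeq2 Rhbg was the member called (adjusted p = 0.0382) while Rnf43 missed the threshold (adjusted p = 0.0509).

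Other genes of lobule zonation and of the pathway were read from lists, described by counts and medians. Among 14 other pericentral hepatocyte genes, 6 were called lower and 0 higher in WD WT NAMPT than in WD WT EV, with a median of -0.41 on the log2 scale against 0.00 over all genes, where 5.77% were called lower. In the same comparison 4 of 7 macrophage markers were called higher (median 0.66), 2 of 4 tested neutrophil markers (median 1.29) and 3 of 6 stellate cell markers (median 0.36), and their part was not tested. Nr1i3, the nuclear receptor CAR, fell by 0.95 ± 0.22, Cyp2c29 by 1.17 ± 0.30, Avpr1a (a vasopressin receptor) by 1.21 ± 0.32 and the cytochrome Cyp2e1 by 0.98 ± 0.26 (log2, SE, adjusted p between 0.0128 and 0.0173). Among 15 periportal genes, the adhesion gene Cdh1 was called higher, by 1.06 ± 0.27 (log2, SE, adjusted p = 0.0150), and the list median was -0.02. In WD LKO NAMPT against WD WT NAMPT, where 4.18% of all genes were called higher, 4 of the 14 pericentral genes were called higher and 0 lower. These were Cyp2a5 (0.79 ± 0.22), Nr1i3 (0.85 ± 0.24), Cyp2e1 (0.92 ± 0.27) and Cyp2c29 (1.01 ± 0.32, log2, SE), and the list median was 0.45. Markers of other cells had log2 medians of -0.56 (macrophage, with Csf1r called lower), -1.11 (neutrophil, Csf3r) and -0.68 (cholangiocyte, Sox9) in that comparison. T and B cell markers were at -0.51 and stellate cell markers at -0.20, with none called. The hepatocyte markers had a median of -0.04, with Tat called lower, and the endothelial markers 0.13, with Wnt2 and Cdh13 called higher. The part of these cell types was not tested. Cdh1 was called lower there, at -1.35 ± 0.29 (log2, SE, adjusted p = 0.0148), as 1 of 15 periportal genes. The interaction was positive for 14 of 14 pericentral genes with a median of 0.56, and none of them passed the test, while 1 passed with DESeq2 and 1 without the 5 libraries of low quality weight (list medians 0.38 and 0.60). Interaction medians of the markers were -0.58 (macrophage), -1.13 (neutrophil) and -1.06 (cholangiocyte), and between -0.29 and 0.10 for the other cell types. No marker was called, and their part was not tested. In the comparisons of WD WT NAMPT with WD WT EV and of the NAMPT groups, 0 of the 14 pericentral genes were called with the edgeR quasi-likelihood test (6 and 3 at an unadjusted p under 0.05), with DESeq2 (7 and 3), without quality weights (7 and 3) or with 2 surrogate variables (2 and 2). The list medians were between -0.34 and -0.39 in the first comparison and 0.31 or 0.32 in the second under the former 3, and -0.16 and 0.13 with 2 surrogate variables, which took that of the interaction to 0.17. Without the 5 libraries of low quality weight, 5 were called lower in the first comparison, and 6 were called higher and 1 lower, Cyp3a11, in the second. No called gene of any list changed its sign under another scaling.

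Genes that feed glutamine synthesis were mixed. In WD WT NAMPT against WD WT EV, where 13.4% of all genes were called and the markers of other cells moved as given above, 1 of 14 tested genes was called higher and 2 lower. Aldh18a1, which makes the proline and ornithine precursor from glutamate, rose by 0.90 ± 0.24, while Got2, the mitochondrial aspartate aminotransferase, was at -0.30 ± 0.08 and Glud1, glutamate dehydrogenase, at -0.30 ± 0.09 (log2, SE, adjusted p between 0.0158 and 0.0259). With scaling by library totals alone, 3 genes of this list were called higher and 0 lower. In WD LKO NAMPT against WD WT NAMPT, with 7.96% of all genes called, Got2 (0.35 ± 0.08) and Aldh4a1 (0.37 ± 0.11) were called higher and Aldh18a1 lower (-1.07 ± 0.26, log2, SE). Of 12 alternatives, 10 lost the call of Aldh4a1 here, 6 that of Aldh18a1 and 5 that of Got2. For NAMPT in WT, 7 lost the call of Glud1 and 5 each those of Got2 and Aldh18a1.

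The Wnt pathway itself was read against shares of 13.4% and 7.96% of all genes called for NAMPT in WT and between the NAMPT groups. Of 7 tested ligands and R-spondins, none was called in WD WT NAMPT against WD WT EV. Wnt2, made by liver endothelium, was at 3.30 ± 1.37 CPM (SD, n = 6) against 5.06 CPM (log2 difference -0.70 ± 0.24, SE, adjusted p = 0.0509). With the filter on the mean CPM, without ribosomal protein genes and without the 5 libraries of low quality weight, 1 ligand was called lower, which was Wnt2. It was called higher in WD LKO NAMPT than in WD WT NAMPT, by 0.83 ± 0.24 (log2, SE, adjusted p = 0.0361), a call lost in 8 of 12 alternatives (adjusted p up to 0.244). The 12 endothelial markers as a whole, which include Wnt2, summed to 300.2 to 358 CPM in WD WT NAMPT and 326 to 379.8 CPM in WD LKO NAMPT. No receptor of 12 tested was called in either comparison. Among 16 genes of beta-catenin and its partners, Tcf7l1 was called lower in WD LKO NAMPT than in WD WT NAMPT (-0.47 ± 0.14, log2, SE, adjusted p = 0.0472, lost in 8 of 12 alternatives), and none was called for NAMPT in WT. Of 8 tested inhibitors and feedback genes, the Wnt deacylase Notum was called lower in WD WT NAMPT than in WD WT EV (-0.59 ± 0.20, log2, SE, adjusted p = 0.0470). That call was lost in 10 of 12 alternatives (adjusted p up to 0.760).

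Western diet against chow, where 22% of all genes were called, was read from the same lists. Among periportal genes 7 of 15 were called lower and 0 higher, with a median of -0.45, and among the other pericentral genes 2 were called higher and 4 lower, with a median of -0.34. With 2 surrogate variables the latter became 4 higher and 3 lower, with a median of -0.05. Of the 6 hepatocyte markers, Cps1 and Tat were called lower (median -0.37), and of 7 macrophage markers, Cd5l and Cd68 were called higher (median 0.26). The stellate cell marker Lrat was called higher, and of 12 endothelial markers 1 was called higher and 1 lower. The part of these cell types was not tested. Cdh1 was at -2.17 ± 0.27, and the urea cycle genes Ass1 and Cps1 were at -0.93 ± 0.19 and -1.22 ± 0.25 (log2, SE, each called). The pericentral genes Cyp3a11 and Avpr1a were at -2.21 ± 0.21 and -1.94 ± 0.24, and Cyp1a2 at -1.17 ± 0.26 (log2, SE). The Wnt receptors Fzd1 (0.52 ± 0.10) and Fzd4 (0.94 ± 0.18) were called higher, and Lgr4 (-0.60 ± 0.13) and Ror1 (-0.60 ± 0.16) lower. Tcf7 (0.63 ± 0.21) and Gsk3a (0.35 ± 0.08) were called higher among 16 genes of beta-catenin and its partners, and Kremen1 (0.31 ± 0.10) among 8 inhibitors. Of the glutamine list, 3 of 14 genes were called higher and 3 lower, among them Got2 (0.26 ± 0.08), Odc1 (-0.53 ± 0.08), the amino acid transporter Slc38a2 (-0.42 ± 0.12) and Gls2 (-1.17 ± 0.26), the liver glutaminase, which is also on the periportal list. The calls of Ror1 and Kremen1 were each lost in 5 of 12 alternatives, that of Tcf7 in 6, that of Got2 in 4 and those of Cyp1a2 and Slc38a2 in 3 each. In the comparison of the EV groups, in that of NAMPT in LKO and in the interaction, no gene of any of the 7 lists was called.

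**Figure D4:**
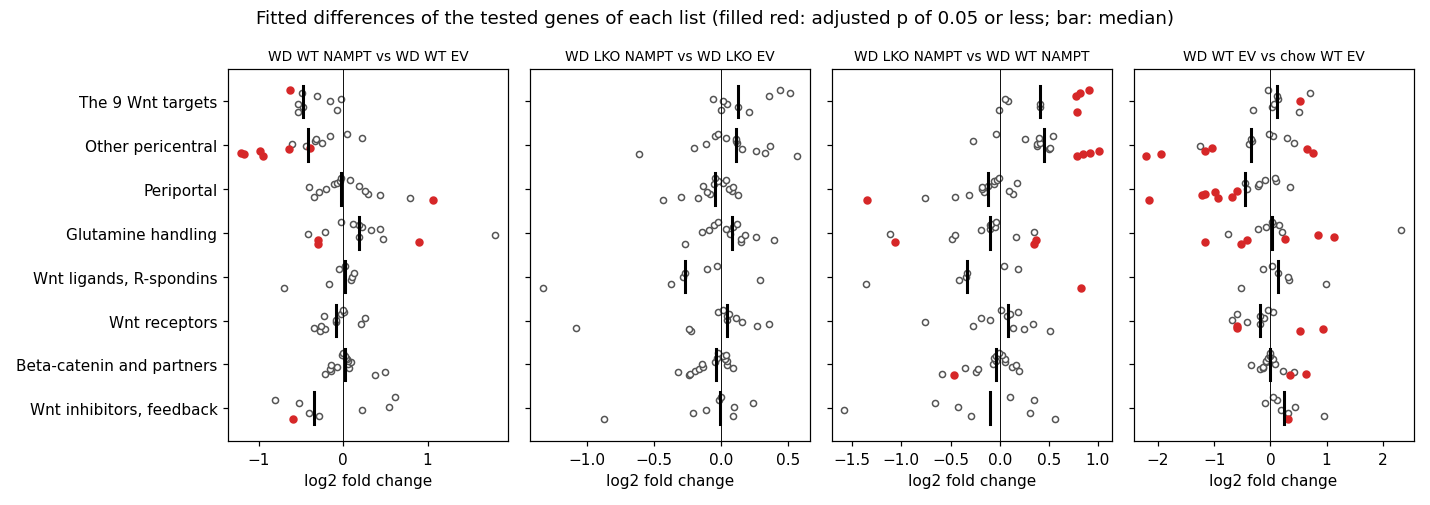
Fitted log2 fold changes (x axes, scaled separately in each panel) of the tested genes of each list and of the 9 members (y axis), with called genes in red and the list median as a bar. In the first panel the pericentral list has 6 called genes, all to the left of 0, and the periportal list 1, to the right.

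How the members varied together was read from log2(CPM + 0.5) with the group mean removed, over 25 libraries, which share depth and tissue composition within each animal. All 36 pairs had a positive Pearson r, with a median of 0.41, although 6 pairs were negative without the WD WT NAMPT libraries (the lowest -0.39, for Rnf43 and Rhbg) and 2 with scaling by library totals alone. In all libraries, 14 of 36 passed at an adjusted p of 0.05 (100000 permutations within groups, two-sided, adjusted over 36 pairs). Spearman's rho passed for 12. The share of all gene pairs that would pass was not computed, so these counts are not shown to be particular to the members. Ranked by r over 12557 genes, Axin2 stood in the top 5.70% for Tbx3 and Oat in the top 0.207% for Slc1a2, both passing pairs. Slc1a2 and Oat were among the closest, with r = 0.82 (permutation p = 7e-05, adjusted p = 0.00252), rho = 0.74 (adjusted p = 0.00516) and r = 0.76 without the 2 libraries farthest from the median of Slc1a2. Glul correlated with Slc1a2 (r = 0.77, permutation p = 0.000320, adjusted p = 0.00384, rho = 0.75, 0.67 without 2 libraries) and with Rhbg (r = 0.76, permutation p = 0.000440, adjusted p = 0.00396, rho = 0.78, 0.73 without 2 libraries).

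Tbx3 and Rnf43 had the highest r, 0.84 (permutation p = 0.000190, adjusted p = 0.00342, rho = 0.77, 0.74 without 2 libraries). That relation was uneven between groups, since r was 0.98 in the 6 WD WT NAMPT libraries, -0.41 in the 6 WD WT EV libraries and 0.59 over the 19 libraries outside WD WT NAMPT. Slc1a2 and Oat had an r of 0.95, 0.61 and 0.73 in the same sets, and Glul and Rhbg 0.87, 0.86 and 0.68. Glul and Oat were at 0.94 in WD WT NAMPT and 0.06 in WD WT EV. At the other end, Rnf43 and Rhbg had an r of 0.06 (permutation p = 0.811, adjusted p = 0.811, rho = -0.02), and Axin2 and Oat 0.13 (permutation p = 0.515, adjusted p = 0.561, rho = 0.05).

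**Figure D5:**
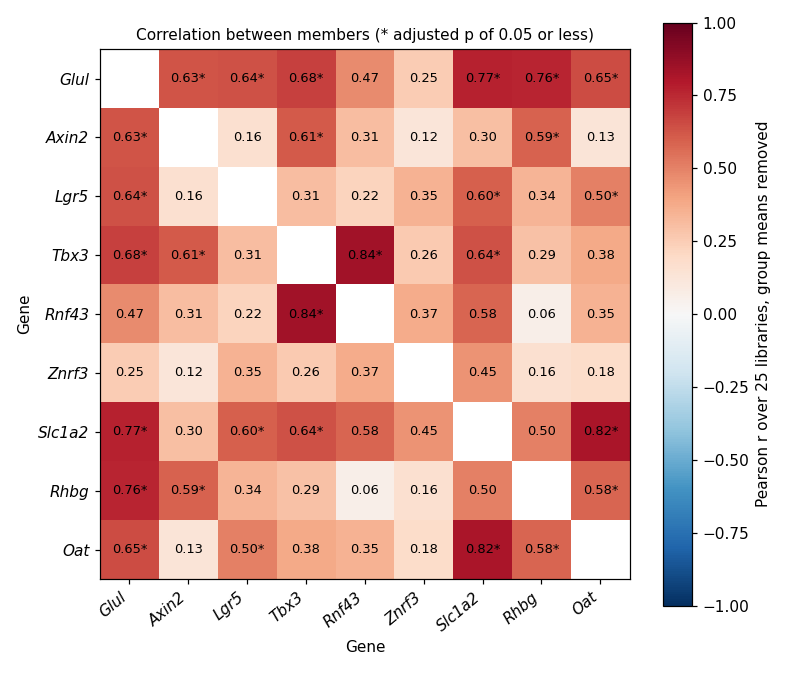
Pearson r between each pair of members over 25 libraries after the group means were removed (colour scale from -1 to 1, with the value in each cell). An asterisk marks the 14 pairs with an adjusted p of 0.05 or less, and Znrf3 has none.

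Among 12549 other genes of sufficient level, those most like a member by the same r were named for each. For Glul they were Mgll, Uck1 and Slc22a3, at 0.93 each, and for Slc1a2 they were Sord (0.90), Pafah2 (0.87) and Aqp9 (0.87). Oat was followed by Lhpp (0.86), Shroom2 (0.84) and P4hb (0.77), and Rhbg by Slc13a3 (0.83), Tlr12 (0.81) and Nol6 (0.77). Tbx3 was followed by Retsat (0.87) and Ech1 (0.86), and Rnf43 by Cpsf4l (0.88), Hectd3 (0.86) and Cyp2d22 (0.86). For Lgr5 the genes were Kpna6 (0.88), Trappc8 (0.87) and Kpna4 (0.86), and for Axin2 Pex11a (0.80), Inhbe (0.79) and Thoc5 (0.78). Znrf3 had no gene above 0.63, where Gm15682, Mbtps1 and 2810425M01Rik stood. By the same measure, ranked over 12557 genes, Slc1a2 was 3 from the top for Oat and Glul 4 from the top for Rhbg. Tbx3 ranked 7 for Rnf43, and Rnf43 ranked 10 for Tbx3. Oat ranked 26 for Slc1a2. Slc1a2 was the member closest to Glul, at rank 77, and to Znrf3, at rank 203. Glul was the member closest to Axin2, at rank 83, and to Lgr5, at rank 390. Many pairs of members stood much further down, such as Axin2 for Oat at rank 4821 and Rnf43 for Rhbg at 5142. The lowest was Rhbg for Rnf43, at rank 5885, so members were not in general the genes most like each other.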

How the data were processed

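Poly-A selected liver RNA was sequenced as single 50-base reads. The submitters' processing notes name bcl2fastq, STAR 2.5.1a, Subread, featureCounts 1.4.6-p5 and GRCm38, while the study's methods give other versions of STAR and featureCounts. The authors counted uniquely aligned, unambiguous reads per gene and deposited, for each library, raw counts with the CPM and RPKM made from them. The deposited CPM and RPKM equalled values recomputed from the counts within 6e-14. Of 41388 identifiers, 40254 had a symbol in GENCODE M21, 40245 of them on the same chromosome.

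From the counts, 4 ribosomal RNA genes and genes not above 1 CPM in at least 2 libraries were left out, and 14065 were tested. One model of all 25 libraries was fitted after TMM scaling with voomWithQualityWeights in limma 3.58.1 (edgeR 4.0.16, R 4.3.3). An adjusted p (Benjamini-Hochberg over all genes tested) of 0.05 or less is a call. CPM in the text are TMM-scaled. Relations between members used log2(CPM + 0.5) and scipy 1.17.1. The scripts were tested on simulated counts.

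The labels describe replicates as separate mice, and the p-values measure the spread between these samples. Libraries of a group differed by more than counting error (chi-square divided by its degrees of freedom was 15.3 or more). That figure is not particular to the members. Precision was set mainly by the spread between mice for the members other than Znrf3. For Znrf3 in chow WT EV, at 432 to 447 counts, the SD was 5.55% of the mean, near counting error alone. Same-numbered libraries did not deviate together in every pair (mean correlations from -0.0046 to 0.11), so no pairing was used.

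The members and the gene lists were chosen with earlier results of these data known. From each list, a comparison names at most the 4 called genes with the smallest p, or the uncalled genes with the smallest p where none is called, and for likeness the 3 genes with the highest r for each member. Cyp3a11 as the exception under an alternative was named after its values were seen. Some genes that this rule selects are not reported here. Alternatives were edgeR's quasi-likelihood test, DESeq2 1.42.0, no quality weights, other scalings, other filters, removal of ribosomal protein genes, the compared groups alone, replicate number as a block, 2 surrogate variables (sva 3.50.0), another pseudocount and each library left out in turn. The fit without 5 libraries of low quality weight was chosen after seeing the data.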

Additional observations from a re-analysis of the deposited data

Results flagged for a closer look

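Of 36 groups of libraries tested for a library far from the rest (9 members in the 4 groups of 5 or 6 libraries), 1 held such a library by Dixon's criterion, which chance meets in about 1 of 20 groups. Slc1a2 in WD WT EV replicate 6 was at 231 CPM, above the other 5 libraries of that group.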

How the results depend on the processing

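The counts of called genes and members depended on the test, the quality weights and single libraries, and the cause was not tested. Of 16 member differences with an unadjusted p under 0.05, 1 of 407 values under the alternatives had the other sign, which was Tbx3 in WD WT NAMPT against WD WT EV with 2 surrogate variables (0.00 on the log2 scale). Among the 38 other member differences, 94 of 916 values had the other sign. All 45 group means of the members moved by less than 1 SD with scaling by library totals alone. Apart from Znrf3, where counting error weighs more, the number of mice and the spread between them limited precision for the members.

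For WD WT NAMPT against WD WT EV, 1890 genes were called. The count was 428 with the quasi-likelihood test, 1194 with DESeq2, 192 without quality weights, 524 without a filter, 804 from the compared groups alone and 66 with 2 surrogate variables. With the quasi-likelihood test, without weights, with library totals alone, without a filter and with 2 surrogate variables, 0 members were called where 1 had been, with 1, 4, 1, 3 and 2 at an unadjusted p under 0.05. Leaving out 1 library gave 132 (without WD WT NAMPT replicate 3) to 2844 genes (without WD WT NAMPT replicate 6) and 0 to 3 members. The called genes were 1079 higher and 811 lower, 2010 and 271 with library totals alone, and 1214 and 594 with upper-quartile scaling.

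For WD LKO NAMPT against WD WT NAMPT, 1120 genes were called, and 45 with the quasi-likelihood test, 294 with DESeq2, 38 without weights, 120 without a filter, 13 from the compared groups alone and 32 with 2 surrogate variables. Under each of these, 0 of the 4 members remained called, and 4, 4, 4, 4, 4 and 3 members had an unadjusted p under 0.05. With library totals alone 1 member was called. Leaving out 1 library gave 0 (without WD LKO NAMPT replicate 2) to 2290 genes (without WD WT NAMPT replicate 6) and 0 to 5 members. The called genes were 588 higher and 532 lower, 204 and 636 with library totals alone, and 345 and 713 with upper-quartile scaling.

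For Western diet against chow, 3101 genes were called, and 1322 with the quasi-likelihood test, 1745 with DESeq2, 1201 without weights and 1970 without a filter. In all of these but DESeq2, 0 members were called, with 3 at an unadjusted p under 0.05 in each, while 2 were called from the compared groups alone and with 2 surrogate variables. Leaving out 1 library gave 834 (without chow WT EV replicate 2) to 3175 genes and 0 to 1 members. The called genes were 1414 higher and 1687 lower, 1053 and 2175 with library totals alone, and 1334 and 1833 with upper-quartile scaling.

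NAMPT in LKO gave 1 called gene. The count was 0 with the quasi-likelihood test (918 at an unadjusted p under 0.05), without weights (877), without a filter (2111), from the compared groups alone (1194) and with 2 surrogate variables (1520), and 6 with DESeq2. Between the EV groups 1 gene was called, and 0 with the quasi-likelihood test (498), a filter on the mean CPM (813) and without the libraries of low weight (852), 11 with DESeq2, 2 from the compared groups alone and 12 with 2 surrogate variables. In both comparisons 0 members were called under each alternative. Leaving out 1 library gave 0 to 4 genes in the first and 0 to 5 in the second. For the interaction, 1 gene was called. The count was 0 with the quasi-likelihood test (1545), without weights (1633) and with 2 surrogate variables (1835), 19 with DESeq2, 3 with library totals alone (which moved the median of all genes by -0.15), 4 without a filter and 362 without the 5 libraries of low weight, where 1 member was called. Leaving out 1 library gave 1 to 677 genes (the most without WD LKO NAMPT replicate 1) and 0 to 1 members.

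With replicate number as a block, 884 genes and 0 members (4 at an unadjusted p under 0.05) were called for NAMPT in WT, 412 genes and 1 member, Oat, between the NAMPT groups, 0 genes for NAMPT in LKO (1258), 2 between the EV groups and 66 for the interaction. For Western diet the replicate block gave 2 called members, Glul (0.77) and Rhbg (0.96), while Rnf43 was at 0.40 (adjusted p = 0.148). Since the numbers were not shown to pair the samples, these are calls of another model. Of 36 correlations, 14 passed, with 12 by ranks, 11 with library totals alone and 14 with a pseudocount of 1.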
